A study of Mus musculus with 8 samples.

Results

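Secreted modulators of Wnt signaling were followed across the cell types of the mouse periosteum, the thin sheet of tissue that covers the outer surface of bone, and between a normal and a high-fat diet. The 10 genes were chosen by name from the 32285 genes that the count matrices list. They were Sfrp1, Sfrp2, Sfrp4 and Frzb of the secreted frizzled-related proteins, Dkk2 and Dkk3 of the Dickkopf family, the inhibitor Wif1, the ligand Wnt5a, and the R-spondins Rspo2 and Rspo3. Cells came from left femurs and tibias of male C57BL/6J mice that were 16 weeks old and were fed normal diet chow (ND) or high fat diet chow (HFD), and the labels list no transgene, deletion or other agent in either group. The bones were freed of muscle, digested with collagenase I and dispase II, and the released cells were captured in 10X Chromium droplets, in which each RNA molecule is counted through its unique molecular identifier (UMI). The labels name 4 samples per diet, but the counts came as 1 pooled matrix for each diet, without a key from barcodes to mice. There is thus 1 library and no replicate on either side, no test between diets was possible, and the 95% intervals below are exact ones for the error of counting alone.

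Wnt proteins are secreted ligands that bind Frizzled receptors with the co-receptors Lrp5 and Lrp6, which stabilizes beta-catenin and turns on target genes, or act through other receptors such as Ror2 and Ryk without beta-catenin. Secreted frizzled-related proteins and Wif1 bind Wnt ligands outside the cell, Dkk2 binds the Lrp co-receptors, and R-spondins bind Lgr receptors and keep Frizzled on the cell surface by removing the ubiquitin ligases Znrf3 and Rnf43. In bone, Wnt signaling is known to drive the formation of osteoblasts, and the periosteum holds the progenitors that widen the bone and repair fractures.

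A filter for barcodes with more than 500 and fewer than 8000 genes and less than 20% mitochondrial UMIs left 6029 ND and 6224 HFD cells, with a median of 4610 and 4823.5 UMIs per cell. The libraries held 48558889 and 49940976 UMIs before this filter, and shared 15 barcodes. Clustering without the 10 genes and without the other Wnt pathway genes gave 27 clusters, and 11 classes could be named from markers. Blood cells made up most of them. Mesenchymal-like cells, the class with the connective tissue cells for which periosteum is known, were 411 (6.82%) of the ND cells and 680 (10.9%) of the HFD cells. Their defining markers stood far above the B cell-like class used here as the background for free RNA. Pdgfra was at 253 UMIs per 1000000 UMIs (UPM) in ND and 255 in HFD against 0.127 and 0.651 in B cell-like cells, and Col1a1 at 4397 and 6552 against 5.32 and 25.8.

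All 10 genes were highest in mesenchymal-like cells among the named classes in both libraries. Of the UMIs of each gene over both libraries, 90.9% (Frzb) to 98.1% (Wnt5a) lay in that class. The 10 genes together reached 1334 UPM (ND) and 1283 UPM (HFD) in mesenchymal-like cells, but 2.53 and 5.47 UPM in B cell-like cells. At least 1 UMI of any of the 10 was seen in 348 of 411 ND cells (84.7%) and 581 of 680 HFD cells (85.4%) of the mesenchymal-like class, against 1.22% and 2.74% of B cell-like cells, whose depth was lower. With every cell thinned to 1000 UMIs the shares were 44.8% and 44.6% against 0.193% and 1.00%. At that depth Frzb had 0 ND and 1 HFD UMI in mesenchymal-like cells, so its place among the classes could not be read.

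**Figure D1:**
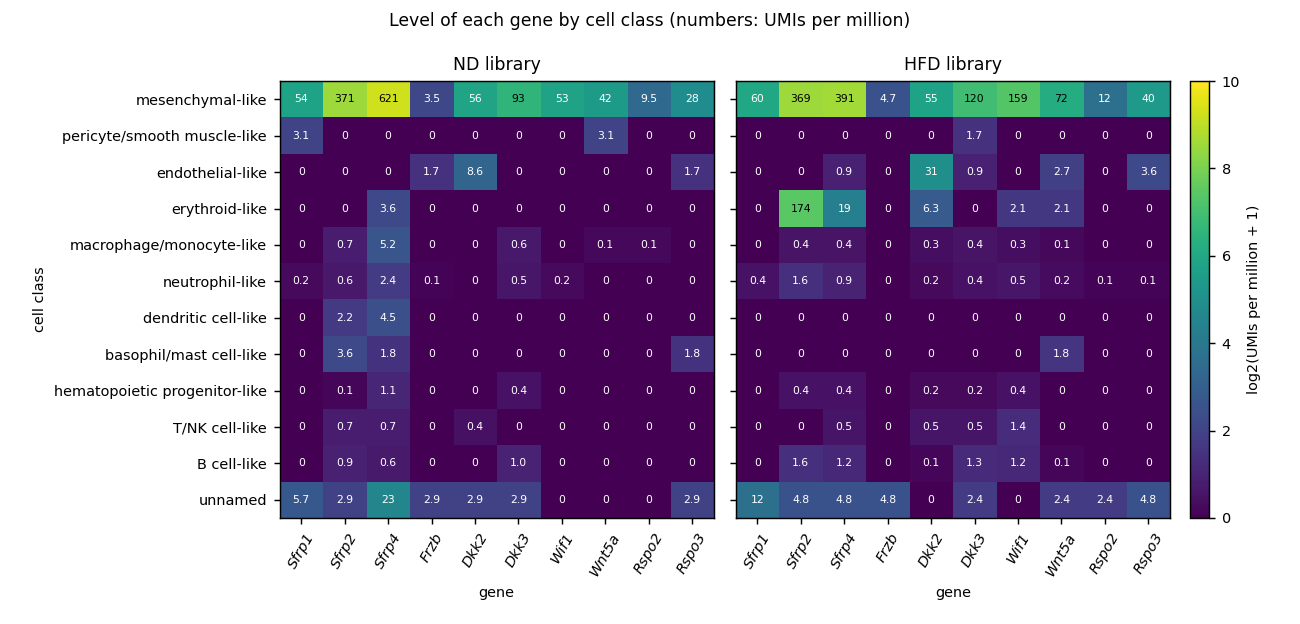
Level of each of the 10 genes in each cell class of the ND and the HFD library, with colour on a scale of log2(UPM + 1) and the UPM printed in each cell. The mesenchymal-like class is highest among the named classes for all 10 genes, while Dkk2 in endothelial-like (30.6) and Sfrp2 in erythroid-like cells (174) of the HFD library stand out among the remaining classes.

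Outside mesenchymal-like cells few values stood above counting error. Dkk2 was at 8.60 UPM (5 UMIs) in ND and 30.6 UPM (95% interval 21.2 to 42.7, 34 UMIs in 12 of 231 cells) in HFD endothelial-like cells, which line blood vessels. Sfrp2 in erythroid-like cells, the precursors of red blood cells, was at 174 UPM in HFD and 0 in ND, and all 83 HFD UMIs lay in 1 of 26 cells. In ND, 31 of the 35 Sfrp4 UMIs of the macrophage/monocyte-like class were likewise in 1 cell. Whether such cells are doublets was not tested.

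The mesenchymal-like cells divided into 8 subclusters, of which 6 could be named from markers. These were fibroblast progenitor-like cells led by Ccl11 and Inmt (95 ND and 156 HFD cells), fibroblast progenitor-like cells led by Pi16 and Procr (94 and 110), tenocyte-like cells led by Nppc and Fbxo2 (90 and 128), tenocyte-like cells led by Chodl and Ptx4 (8 and 38), osteoblast-like cells led by Mmp13 and Postn (59 and 131), and synovial lining-like cells led by Prg4 and Htra4 (5 and 15). The Nppc cells had 4 of 7 tenocyte markers raised and the Chodl cells 7 of 7. A subcluster led by Col2a1 and Cytl1 (39 and 54 cells) stayed unnamed. It carried the cartilage list at 915 and 3261 UPM beside the neutrophil list at 111848 and 79829 UPM. Of its cells, 21 in ND and 20 in HFD were in the top 5% of Scrublet doublet scores. A shallow subcluster led by Txndc16 and Vpreb3 (21 and 48 cells, median 2080 and 1972.5 UMIs) stayed unnamed too.

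The secreted frizzled-related proteins differed in place only in part in summed UMIs, since Sfrp1 and Sfrp4 were both highest in the Ccl11 fibroblast progenitor-like cells in ND. For Sfrp4 this first place rested on 1 cell, which held 402 of the 1052 UMIs. Without the highest cell, the ND Ccl11 cells were at 648 UPM of Sfrp4 and the ND Nppc tenocyte-like cells at 703. Sfrp1 (chr8:23411502-23449632, plus strand, 3 exons, GRCm38) was highest in the Ccl11 fibroblast progenitor-like cells, at 143 UPM (121 to 168) in ND and 171 (152 to 192) in HFD, which held 148 of its 262 ND and 284 of its 425 HFD UMIs in the mesenchymal-like class. Its level was 49.6 and 48.7 UPM in the Pi16 cells and 3.85 and 6.32 UPM in osteoblast-like cells. The first rank was apart from the next by non-overlapping intervals only in HFD.

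Sfrp2 (chr3:83766321-83774316, plus strand) was highest in a tenocyte-like subcluster in each library, though most cells there had no UMI of it. An Sfrp2 UMI was seen in 37 of 90 ND Nppc cells and in 12 of 38 HFD Chodl cells. In the Nppc tenocyte-like cells it stood at 1287 UPM (1218 to 1358) in ND and 932 (881 to 984) in HFD, and in the Chodl tenocyte-like cells at 875 (714 to 1061) and 2276 (2120 to 2441). The 2 tenocyte-like subclusters thus changed places between the libraries. In HFD the unnamed Txndc16 subcluster stood between them, at 1090 UPM on 127 UMIs. Without the highest cell of each library the Nppc cells were at 864 and 755 UPM and the Chodl cells at 344 and 1843. Levels were 139 and 134 UPM in the Ccl11 cells, but 99 of the 143 ND UMIs there lay in 1 cell, and without the highest cells they were 42.9 and 110.2 UPM, a ratio of HFD over ND of 2.55 (1.84 to 3.66). They were 108 and 99.6 in the Pi16 cells, 19.3 and 9.03 in osteoblast-like cells. No UMI was seen in the synovial lining-like cells of either library.

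Sfrp4 (chr13:19623104-19632994, plus strand) was spread more widely. In ND it was at 1019 UPM (959 to 1083) in the Ccl11 cells, 779 (726 to 835) in the Nppc tenocyte-like cells, 472 (434 to 512) in the Pi16 cells and 249 (208 to 295) in osteoblast-like cells. In HFD the same subclusters were at 493 (460 to 528), 473 (437 to 511), 505 (467 to 545) and 238 (210.5 to 269) UPM, and the intervals of the first 3 overlapped. Frzb (chr2:80411970-80447625, minus strand), known from cartilage, was the lowest in UMIs, with 17 (ND) and 33 (HFD) in the mesenchymal-like class. Of these, 11 and 20 lay in the unnamed Col2a1 subcluster, at 15.3 and 23.5 UPM.

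Dkk2 and Dkk3 were highest in different subclusters but were not in separate cells. In ND, 40.6% of Dkk2-positive mesenchymal-like cells also had a Dkk3 UMI, against 39.4% of all mesenchymal-like cells. In HFD the shares were 33.3% and 40.7%. Dkk2 (chr3:132085292-132180304, plus strand) was at 132 UPM (111 to 156) in ND and 105 (89.9 to 122) in HFD in the Ccl11 cells, at 65.8 and 54.6 in the Nppc tenocyte-like cells and at 41.5 and 60.3 in the Pi16 cells. The unnamed Txndc16 subcluster was at 129 UPM in HFD, on 15 UMIs. It had no UMI in osteoblast-like cells of either library. Dkk3 (chr7:112116017-112159057, minus strand), a divergent Dickkopf relative, was highest in osteoblast-like cells, at 250.5 UPM (209 to 297) in ND and 334 (301 to 370) in HFD, apart from the next subcluster in both libraries. This subcluster held 130 ND and 370 HFD Dkk3 UMIs. In a finer split, chosen after the values were seen, unnamed cells led by Acta2 and Postn held 106 and 329, at 293 and 405 UPM. These cells had 6 of 6 markers of a Postn osteogenic list raised, with the osteoblast list second by score. The osteoblast-like cells of that split, led by Spp1 and Mmp13, were at 175 (116 to 253) and 139 (99.7 to 189) UPM. Dkk3 reached 142 and 166 UPM in the Nppc tenocyte-like cells and stayed at 50.4 UPM or below in both fibroblast progenitor-like subclusters.

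Wif1 (chr10:121033960-121100650, plus strand) was restricted to few cells. It was at 226 UPM (193 to 264) in ND and 1000.9 (935 to 1070) in HFD in the unnamed Col2a1 subcluster, and at 280.3 (193 to 394) and 443 (376 to 519) in the Chodl tenocyte-like cells. Of the 33 ND UMIs in the Chodl cells, 26 lay in 1 of 8 cells. Without the highest cell of each library the Chodl cells were at 65.0 and 346 UPM. The Ccl11 and Pi16 fibroblast progenitor-like cells held no Wif1 UMI in ND and 6 and 2 in HFD. The same finer split set apart 7 ND and 23 HFD chondrocyte-like cells led by Col2a1 and Cytl1, in which 130 ND and 838 HFD Wif1 UMIs lay (1385 and 2452 UPM, in 6 and 15 cells).

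Wnt5a (chr14:28504750-28527448, plus strand), a ligand known mainly for signaling without beta-catenin, led in osteoblast-like and Nppc tenocyte-like cells. Osteoblast-like cells were at 100.2 UPM (74.8 to 131) in ND and 120.1 (101 to 142) in HFD, and the Nppc cells at 88.1 (70.9 to 108) and 123 (105 to 143). These 2 subclusters were not apart in either library. In the finer split the Acta2 and Postn cells were at 99.5 and 138 UPM and the Spp1 and Mmp13 osteoblast-like cells at 100.03 and 71.2. The R-spondins were highest in different subclusters in ND and in the same subcluster in HFD, but the ND order for Rspo3 was not resolved. Rspo2 (chr15:43020794-43170826, minus strand) lay mainly in a small subcluster. The synovial lining-like cells, which make up the inner surface of the joint capsule, held 29 of its 46 ND and 65 of its 85 HFD UMIs in the mesenchymal-like class, at 263 UPM (176 to 378) and 208 (161 to 265), with a UMI in 4 of 5 and 12 of 15 cells. The next subcluster lay apart in both libraries, at 12.5 UPM in ND and 10.8 in HFD. Of the synovial lining-like cells, 3 of 5 and 9 of 15 were in the top 5% of Scrublet doublet scores. Over the mesenchymal-like class 67 of 411 and 80 of 680 cells were. The synovial lining-like cells were also deep, with medians of 19499 and 19047 UMIs, and whether they are doublets was not tested. Rspo3 (chr10:29452416-29535867, minus strand) was at 83.3 (66.6 to 103) and 93.7 (78.1 to 111) UPM in the Nppc tenocyte-like cells and at 32.8 and 38.8 in osteoblast-like cells. In HFD the synovial lining-like cells stood above both, at 157 (116 to 207) UPM. In ND they were at 27.2 UPM (5.62 to 79.6) on 3 UMIs, and this interval overlapped that of the Nppc cells.

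**Figure D2:**
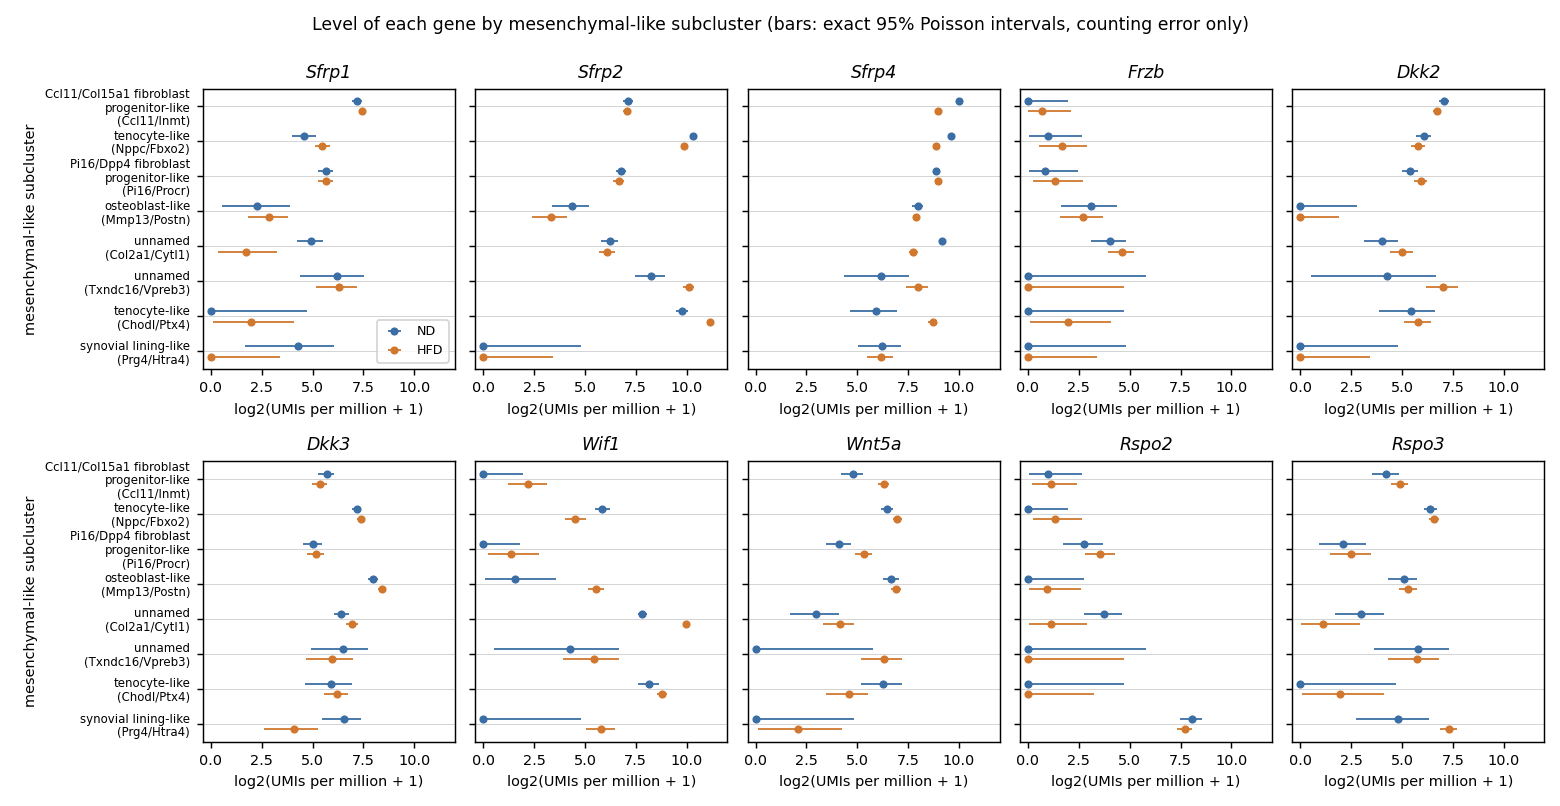
Level of each gene, as log2(UPM + 1), in the mesenchymal-like subclusters of the ND (blue) and the HFD (orange) library, with exact 95% Poisson intervals. In both libraries Sfrp1 peaks in the Ccl11 fibroblast progenitor-like cells, Sfrp2 in tenocyte-like cells, Dkk3 in osteoblast-like cells and Rspo2 in synovial lining-like cells, while Wif1 is low in the fibroblast progenitor-like cells.

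A level over summed cells can rest on few of them, and the genes differed in this. In ND, 454 of the 1788 Sfrp2 UMIs (25.4%) came from 1 cell, and 6 cells held 50% of them. In HFD 9 cells did. Wif1 was as uneven, since 5 cells held 66.9% of its ND and 67.1% of its HFD UMIs, and the highest HFD cell alone had 327 of 1117. Wnt5a lay at the other end. Its highest cell had 8 UMIs in ND and 10 in HFD, and 29 and 64 cells were needed to reach 50%. Dkk3 needed 32 and 50 cells.

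**Figure D3:**
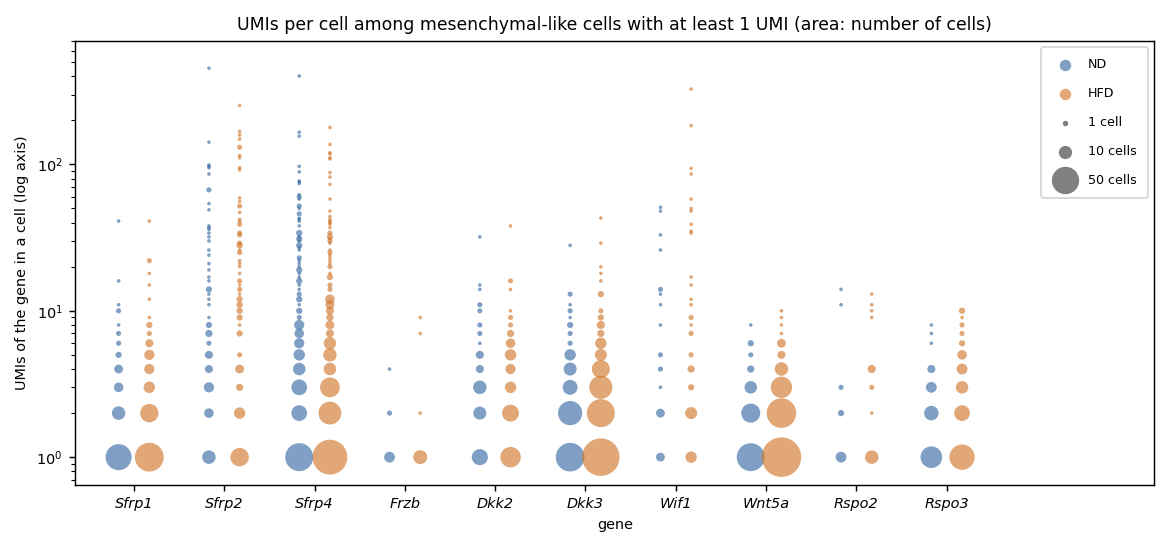
UMIs of each gene per mesenchymal-like cell with at least 1 UMI of it (log axis), in ND (blue) and HFD (orange), with the area of a point for the number of cells. Sfrp2 and Sfrp4 reach 454 and 402 UMIs in 1 ND cell each and Wif1 327 in 1 HFD cell, while no cell holds more than 10 UMIs of Wnt5a.

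Dkk2 was detected more often in cells with an Sfrp2 UMI than in cells without. The pairs shown here were picked from all pairs of the 10 genes. Among mesenchymal-like cells with an Sfrp2 UMI, 40 of 77 in ND (51.9%, Clopper-Pearson interval 40.3 to 63.5) and 48 of 105 in HFD (45.7%, 36.0 to 55.7) also had a Dkk2 UMI. Among cells without Sfrp2 the shares were 29 of 334 (8.68%) and 54 of 575 (9.39%). The median depth was near the same with and without Sfrp2, at 10999 and 10541 UMIs in ND and 9527 and 9501 in HFD. The difference was also seen inside subclusters. In the Nppc tenocyte-like cells the shares were 54.1% against 5.66% in ND and 44.1% against 8.51% in HFD, and in the Pi16 cells 10 of 20 cells against 8.11% and 52.9% against 16.1%. In the HFD Chodl cells they were 33.3% (9.92 to 65.1) against 11.5% (2.45 to 30.2), with intervals that overlapped. Over the class, Wnt5a was detected in 40.1% and 46.2% of Dkk3-positive cells against 18.1% and 30.5% of the others. There the Dkk3-positive cells were deeper (12285.5 against 9572 UMIs in ND, 10579 against 8709 in HFD). Inside subclusters this was not uniform. In the Ccl11 cells the shares were 15.4% against 18.8% in ND and 44.1% against 43.4% in HFD. In the Pi16 cells they were 16.7% against 13.2% and 22.2% against 31.3%. In osteoblast-like cells they were 63.6% against 34.6% and 61.2% against 26.1%. The Dkk3-positive osteoblast-like cells were much deeper, with medians of 10080 against 4636 UMIs in ND and 8381 against 4554 in HFD. The part of depth in these shares was not tested. In the Nppc cells the shares were 61.4% against 27.3% and 60.3% against 48%.

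Among the genes that the promoter table matched, Sfrp2, Dkk2 and Wif1 carry the patterns of shared and restricted detection. The 250 bases before their RefSeq start sites (GRCm38.p6, all on the plus strand) are shown. CTTTG, the core of the TCF/LEF motif through which beta-catenin acts, is in capitals. The windows are chr3:83766071-83766320 for Sfrp2, chr3:132085042-132085291 for Dkk2 and chr10:121033754-121034003 for Wif1. The promoter table matched 4 of the 10 genes. The other matched gene, Frzb, is not shown, and its window held the core 1 time and was 64.4% GC.
Sfrp2: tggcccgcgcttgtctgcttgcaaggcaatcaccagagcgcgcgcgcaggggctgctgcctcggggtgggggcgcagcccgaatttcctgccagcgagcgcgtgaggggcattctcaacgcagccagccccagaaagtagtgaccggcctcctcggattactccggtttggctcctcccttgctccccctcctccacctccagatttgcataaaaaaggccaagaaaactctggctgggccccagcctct
Dkk2: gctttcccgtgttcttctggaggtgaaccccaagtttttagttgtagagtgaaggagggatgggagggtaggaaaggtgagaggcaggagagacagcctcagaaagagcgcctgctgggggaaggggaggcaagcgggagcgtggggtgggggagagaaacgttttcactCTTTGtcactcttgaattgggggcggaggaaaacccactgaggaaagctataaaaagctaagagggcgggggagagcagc
Wif1: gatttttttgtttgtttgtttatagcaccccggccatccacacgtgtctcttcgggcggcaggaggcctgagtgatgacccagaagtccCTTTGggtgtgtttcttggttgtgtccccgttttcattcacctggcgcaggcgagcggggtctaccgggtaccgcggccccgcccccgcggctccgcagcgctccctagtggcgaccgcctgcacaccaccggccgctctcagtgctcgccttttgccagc
On either strand, the core was present 1 time each in the Dkk2 and Wif1 windows and was not found in that of Sfrp2, whereas 48.6% of all windows of this length in the table hold it. The windows of Sfrp2, Dkk2 and Wif1 were 63.6%, 55.6% and 62.8% GC, against a median of 52.4% over the table. These matches describe letters and not bound sites.

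The diet comparison within mesenchymal-like cells asked whether the level of each gene differed between the pooled libraries. At a rule of 1.5-fold, 3 of the 10 genes differed, with Wif1 and Wnt5a higher and Sfrp4 lower in the HFD library. Of all 12631 genes with at least 20 UMIs in these cells, 13.7% passed the same rule, 8.04% higher and 5.69% lower. The median log2 ratio of HFD over ND was 0.35 for the 10 genes and 0.05 for all genes. In these bulk sums over a class, fewer cells expressing a gene and less RNA per cell cannot be told apart, so shares of cells are given beside the levels.

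Sfrp4 was at 621 UPM (2994 UMIs) in ND and 391 UPM (2755 UMIs) in HFD, a ratio of 0.629 (0.597 to 0.663). It was detected in 49.4% (44.5 to 54.3) of ND and 40.7% (37.0 to 44.5) of HFD cells, and in 21.4% and 15.1% after thinning. Without the highest cell of each library the log2 ratio went from -0.67 to -0.56, inside the fold rule. At -0.47 after thinning and -0.38 with every cell given the same weight, it was inside the rule too. Wnt5a was at 42.3 UPM (204 UMIs) in ND and 72.4 (510 UMIs) in HFD, a ratio of 1.71 (1.45 to 2.02), with a UMI in 26.8% (22.5 to 31.3) and 36.9% (33.3 to 40.7) of cells. After thinning, which left 25 and 55 Wnt5a UMIs, the ratio was 1.34 (0.827 to 2.26).

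Wif1 was at 53.3 UPM (257 UMIs) in ND and 159 (1117 UMIs) in HFD, a ratio of 2.97 (2.59 to 3.42). The share of cells with a Wif1 UMI was close, at 6.33% and 7.21%. Its ratio was 1.37 (0.834 to 2.37) on 23 and 52 UMIs after thinning. Chondrocyte list genes moved with Wif1, from 249 UPM in the ND to 502 UPM in the HFD cells, and the part of cartilage cells in the difference was not tested.

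The remaining genes stayed within 1.5-fold. Rspo3 was at 28.2 and 39.9 UPM (ratio 1.41, 1.15 to 1.75) and Dkk3 at 93.4 and 120.1 UPM (1.29, 1.15 to 1.45), both with intervals above 1. Sfrp2 was at 371 and 369 UPM (0.994, 0.936 to 1.06), and without the highest cell of each library at 278 and 334 UPM (interval of the ratio 1.12 to 1.29). Dkk2 was at 56.5 and 54.8 (0.970, 0.829 to 1.14). Sfrp1 was at 54.4 and 60.3 UPM (1.11, 0.949 to 1.30). Rspo2, on 46 and 85 UMIs, and Frzb, on 17 and 33, had ratios of 1.26 (0.873 to 1.85) and 1.31 (0.719 to 2.54). Both intervals held 1 as well as 1.5, so a difference of the fold rule's size was neither shown nor excluded. The 10 genes summed to 6426 UMIs in ND and 9037 in HFD, a ratio of 0.962 (0.931 to 0.993) per UMI.

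**Figure D4:**
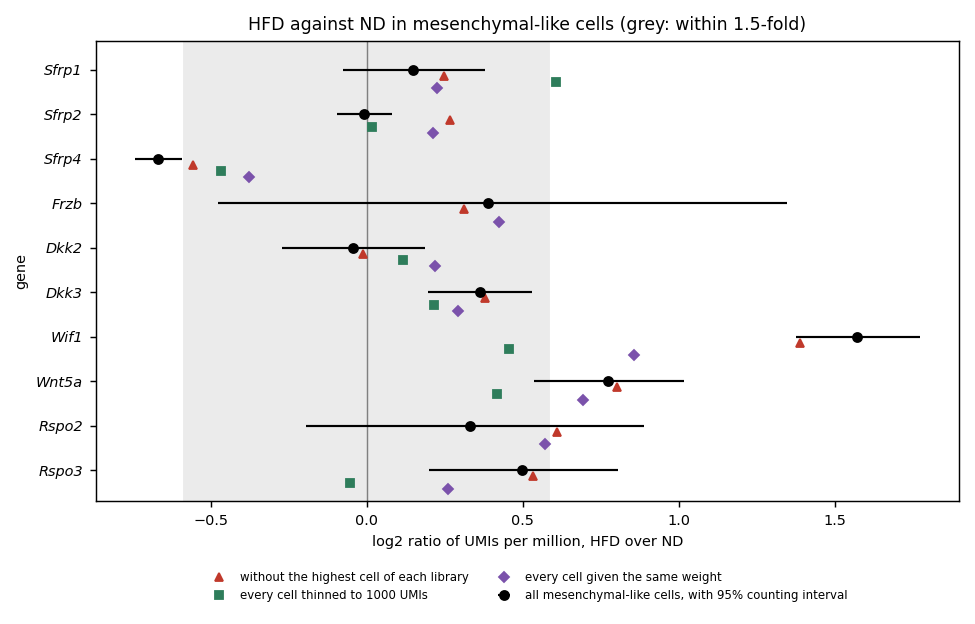
Log2 ratio of HFD over ND levels of each of the 10 genes in all mesenchymal-like cells (black, with exact 95% intervals for counting error) and under 3 other settings, with the range within 1.5-fold in grey. Sfrp4 lies below and Wif1 and Wnt5a above the grey range in black. Sfrp4 lies within it under all 3 other settings. Wif1 and Wnt5a lie within it only after thinning to 1000 UMIs per cell, where Frzb and Rspo2 are left out for too few UMIs.

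Within subclusters the Sfrp4 difference was not uniform. The ratio was 0.484 (0.441 to 0.531) in the Ccl11 cells and 0.607 (0.546 to 0.674) in the Nppc tenocyte-like cells, but 1.07 in the Pi16 cells and 0.957 in osteoblast-like cells. It was lowest in the unnamed Col2a1 subcluster, at 0.380 (0.317 to 0.452, 409 and 183 UMIs). There 166 of the ND and 111 of the HFD UMIs lay in 1 cell each. In the finer split the unnamed cells led by Retnlg and Stfa2l1 were at 0.508 (0.422 to 0.608, 411 and 171 UMIs). The chondrocyte-like cells of that split held 0 and 12 Sfrp4 UMIs. Leaving out the highest cell of each library gave 0.600 (0.537 to 0.670) in the Ccl11 cells and 0.540 (0.481 to 0.606) in the Nppc cells. In the Col2a1 subcluster it gave 0.252 (0.190 to 0.327). Wnt5a was higher in HFD in both fibroblast progenitor-like subclusters, at 26.2 against 77.2 UPM in the Ccl11 cells (ratio 2.91, 1.94 to 4.65), where cells with a UMI went from 17.9% to 43.6%, and at 16.3 against 38.6 UPM in the Pi16 cells (2.34, 1.39 to 4.21). In osteoblast-like cells it differed little (100.2 and 120.1 UPM). Wif1 went opposite ways, with a ratio of 4.42 (3.74 to 5.27) in the unnamed Col2a1 subcluster and 0.391 (0.241 to 0.611) in the Nppc tenocyte-like cells. In the finer split the ratio was 1.76 (1.47 to 2.15) in the chondrocyte-like cells (7 ND and 23 HFD cells) and 0.601 (0.304 to 1.11) in the unnamed cells led by Retnlg and Stfa2l1. In osteoblast-like cells 50 of its 51 HFD UMIs came from 1 cell. The Dkk3 ratio in osteoblast-like cells was 1.33 (1.09 to 1.64), within the rule. In the finer split it was 1.38 (1.11 to 1.74) in the Acta2 and Postn cells and 0.790 (0.479 to 1.33) in the Spp1 and Mmp13 osteoblast-like cells. Rspo3 in synovial lining-like cells went from 3 to 49 UMIs (27.2 and 157 UPM). Over the Ccl11 cells, 2 of 7 genes with 20 UMIs passed the rule upward and 1 downward (11.4% and 7.07% of all genes there), and over the Nppc cells 1 of 8 and 2 (10.2% and 7.88%). In the Pi16 cells 2 of 7 passed upward and none downward (10.1% and 7.99%), in osteoblast-like cells 1 of 6 upward and 1 downward (11.8% and 10.8%), and in the unnamed Col2a1 subcluster 3 of 7 upward and 2 downward (13.1% and 11.7%). None passed downward in the 3 smallest groups, where 3 of 5 genes in the Chodl tenocyte-like cells (24.8% and 13.9% of all genes), 1 of 3 in the synovial lining-like cells (16.6% and 22.5%) and 2 of 2 in the unnamed Txndc16 subcluster (20.8% and 16.3%) passed upward.

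Several marker lists moved with the diets in mesenchymal-like cells, and their part in these ratios was not tested. All 9 neutrophil list genes had UMIs in the class, at 20948 UPM in ND and 11841 in HFD. The list of dissociation and immediate-early genes, a sign of stress in dissociated cells, also held heat-shock genes and stood at 25076.5 and 19211.5 UPM. The osteoblast list was at 2634 and 3802 UPM and the tenocyte list at 1485 and 1922 UPM.

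Over all kept cells instead of mesenchymal-like cells, 8 of the 10 genes were at least 1.5-fold higher in HFD and none lower, beside 11.1% of all genes higher and 4.38% lower. Wif1 was 4.27-fold, Wnt5a 2.46-fold and Rspo3 2.01-fold higher, while Sfrp2 (1.46) and Sfrp4 (0.880) did not pass. Given the same class shares in both libraries, 3 genes passed, 2 higher and 1 lower, and no share over all genes is given for that setting. The HFD library held the larger share of mesenchymal-like cells, and with 1 library per diet a difference in the cells released from bone cannot be told apart from a difference in the tissue.

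Of the 75 other Wnt pathway genes, 52 had at least 20 UMIs in mesenchymal-like cells. Of these, 8 were at least 1.5-fold higher in HFD, 2 lower and 42 within the rule, beside 8.04% of all genes in these cells higher and 5.69% lower. The median log2 ratio was 0.17, against 0.05 over all genes. Among 8 ligands tested, Wnt5b (21.2 and 32.8 UPM) was higher and Wnt2 (16.2 and 7.67 UPM, ratio 0.475) lower. Wnt6 passed the rule upward on 7 and 17 UMIs with an interval that included 1 (0.655 to 4.74). Wnt16, a ligand known from cortical bone, was at 143 and 155 UPM and reached 408 and 440 UPM in the Nppc tenocyte-like cells and 459 and 430 in osteoblast-like cells. Among the secreted modulators, Notum, which cuts the lipid off Wnt proteins, was at 1.45 and 4.54 UPM, on 7 and 32 UMIs (ratio 2.96, 1.36 to 8.39). Igfbp4, a binding protein of insulin-like growth factors, was at 621 and 557 UPM, and the cell surface proteoglycan Gpc3 at 126 and 187 UPM (ratio 1.48, 1.34 to 1.63), just inside the rule. The ligands Wnt9a (31.8 and 35.2 UPM), Wnt11 (38.4 and 41.9) and Wnt10b (23.2 and 20.6) stayed within it. The osteocyte inhibitor Sost had 2 and 1 UMIs, Dkk1 5 and 0, and Sfrp5 1 and 5.

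Of 19 receptor genes, 3 passed the rule upward and none downward, where 8.04% and 5.69% of all genes did. These were Lgr6 (1.66 and 4.12 UPM, ratio 2.37, 1.11 to 6.28), the R-spondin target Znrf3 (4.77 and 9.09 UPM, 1.88, 1.17 to 3.21) and Fzd3 (12 and 34 UMIs, 1.89), whose interval of 0.979 to 4.11 included 1. The co-receptor Lrp6 was at 122 and 144 UPM, Ryk at 106 and 110, and Fzd1 at 46.1 and 63.0. The remaining receptors with at least 200 UMIs (Fzd2, Fzd4, Fzd8, Lrp5, Lgr4 and Kremen1) had ratios from 0.903 (Kremen1) to 1.26 (Fzd2). None of 11 secretion and intracellular genes passed the rule, among them Wls, which carries Wnt proteins to the cell surface (157 and 170 UPM), and Ctnnb1, which encodes beta-catenin (136 and 170 UPM). The transcription factor Tcf7l2 was at 70.6 and 90.2 UPM and the kinase Gsk3b at 141 and 154, and Apc, Axin1, Dvl1, Dvl3 and Tcf7l1 had ratios from 0.779 (Dvl1) to 1.16 (Dvl3). Of 10 target and feedback genes, 2 passed upward and 1 downward. Ccn4 was at 14.3 and 29.0 UPM (ratio 2.01, 1.53 to 2.70). Tcf7 (9 and 22 UMIs, ratio 1.62, 0.740 to 4.12) and Lef1 (24 and 11 UMIs, 0.321, 0.139 to 0.665) were lower in mesenchymal-like cells, at 1.87 and 3.12 UPM and at 4.98 and 1.56 UPM, than over all kept cells, at 13.1 and 9.39 UPM and at 25.7 and 24.2 UPM. The part of free RNA in their few UMIs was not tested. Axin2, a widely used readout of beta-catenin signaling, was at 11.6 UPM in both libraries. Ccnd1 was at 94.7 and 78.5 UPM, Twist1 at 216 and 193, Nkd2 at 16.8 and 19.2, and Tnfrsf11b, the decoy receptor that restrains osteoclasts, at 23.5 and 26.3.

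**Figure D5:**
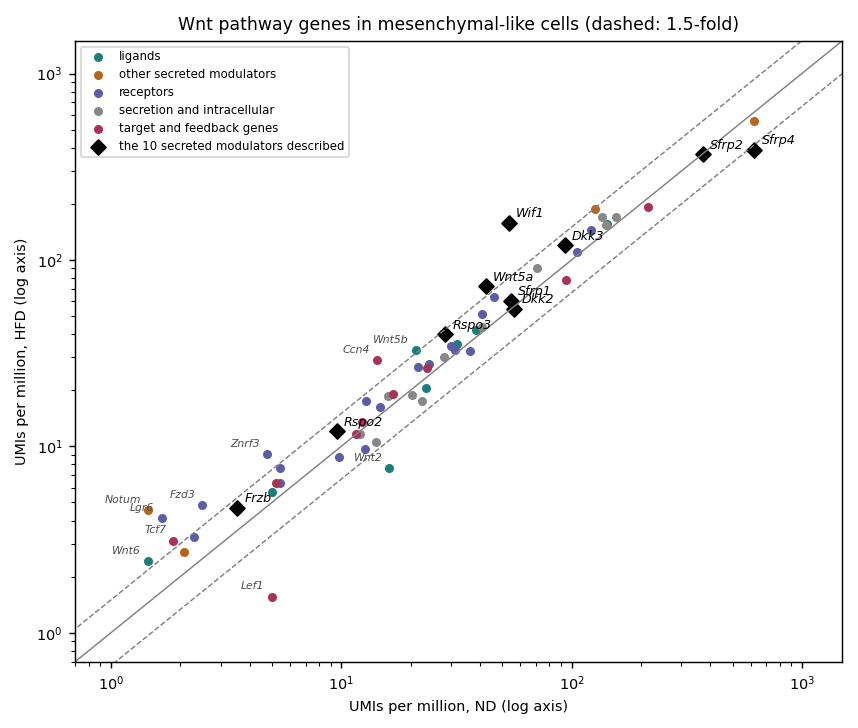
UPM in HFD against ND mesenchymal-like cells (log axes) for the 10 genes (black diamonds) and the other Wnt pathway genes with at least 20 UMIs, coloured by role, with equality as a solid and 1.5-fold as dashed lines. Most pathway genes lie between the dashed lines, with 8 above and 2 below.

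Levels were compared over 36 points, the named classes other than the mesenchymal-like class and the mesenchymal-like subclusters in each library. These points come from the same libraries. The genes most alike each member by Pearson correlation over log2(UPM + 1) differed between members. Sfrp4 (Dcn, r = 0.953) and Dkk3 (Thbs2, 0.974) had matrix genes first, and Prrx2 was among the first 3 of both. Sfrp2 was most like Nkd2 (0.914), an inhibitor in the Wnt pathway, and Chrdl1 (0.912). Wif1 was most like Chad (0.861), Thbs4 (0.837) and Cilp2 (0.835), genes known from cartilage and tendon. Sfrp1 was nearest to Lgi4 (0.916) and Osr1 (0.886), Dkk2 to Cfb (0.944), Wnt5a to Aldh3a1 (0.942), Olfml1 (0.939) and Omd (0.911), and Rspo3 to Foxp2 (0.919) and Spon1 (0.896). Frzb and Rspo2 had under 200 UMIs and were left out of this comparison. Genes are not independent replicates, and these correlations describe place only.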

How the data were processed

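Mesenchymal and other cells of the periosteum were profiled by single-cell RNA sequencing. For each diet the authors deposited a matrix of raw counts, 1 UMI count per gene and barcode. The submitters' processing notes name Cell Ranger 6.0.1 and the mm10 genome. The barcodes of the 4 samples labelled per diet were pooled, so that groups came from the matrix of each diet, and no count was normalized before deposit. A 3′ UMI count is not divided by gene length, so levels are compared within a gene.

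Barcodes with over 500 and under 8000 genes and under 20% mitochondrial UMIs were kept, the limits of the study. Cells were clustered with R 4.3.3, Seurat 5.3.0 and sctransform 0.4.2 (cell cycle scores regressed, 30 principal components, Louvain resolution 0.5), with the 10 genes and the 75 pathway genes left out of the clustering genes. Mesenchymal-like cells were clustered again at 0.5. A cluster was named only where at least 3 listed markers were raised and no other list led. Scrublet (scanpy 1.11.5) called 9 ND and 23 HFD cells at its own threshold, 0.149% and 0.370%, too few to use, so doublets were not removed.

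UMIs were summed per library and class and divided by the summed UMIs, as UMIs per 1000000 UMIs (UPM). Intervals are exact Poisson for levels, conditional binomial for ratios and Clopper-Pearson for shares, at 95%, and a count of 0 allows up to 3. Ratios had 0.5 added to each count. A gene was counted past the rule at 1.5-fold with at least 20 UMIs over both libraries. With 1 library per diet no test was run, and none over cells, which are not replicates. The calculation of ratios was tested on simulated data (Python 3.11.15, scipy 1.17.1). For comparison at equal depth each cell was thinned to 1000 UMIs, and 55 ND and 51 HFD cells below that depth were left out.

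The 10 genes, the pathway list and the marker lists were chosen with earlier results of these data known. Named besides the 10 genes were pathway genes with at least 200 UMIs in mesenchymal-like cells or past the rule there, 3 further pathway inhibitors (Sost, Dkk1, Sfrp5), Axin2 by its use as a readout, and for each of the 10 genes up to 3 genes with the most alike levels. Positions are from GENCODE M21 on GRCm38, the assembly that mm10 names. On the other strand, Sfrp2 overlaps Gm26771, Wnt5a overlaps Gm2670 and Rspo3 overlaps Gm48159. Strand handling in the counting is not given in the sources used, so their counts could hold reads of these partners. On the same strand, Rspo3 overlaps Gm20276, which the matrices do not list.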

Additional observations from a re-analysis of the deposited data

Results flagged for a closer look

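Sfrp4 and Wif1 went different ways between diets in different mesenchymal-like subclusters, and none of these differences was tested. For Sfrp4 the ratio of HFD over ND was 0.484 in the Ccl11 fibroblast progenitor-like cells and 0.607 in the Nppc tenocyte-like cells, but 6.53 (3.30 to 17.6) in the Chodl tenocyte-like cells, where 118 of the 144 HFD UMIs lay in 1 cell and ND had 7 UMIs. Without the highest cell of each library that ratio was 2.28 (0.701 to 24.3).

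For Wif1 the ratio was 0.391 in the Nppc tenocyte-like cells, 1.56 (1.08 to 2.38) in the Chodl tenocyte-like cells and 16.1 (4.10 to 962) in osteoblast-like cells. The last rests on 1 ND and 51 HFD UMIs, 50 of them in 1 cell. The Chodl ratio was 4.99 without the highest cell of each library, where 7 ND UMIs remained.

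Among genes with at least 20 UMIs in a class of a library outside mesenchymal-like cells, 4 values stood above the interval of B cell-like cells. Dkk2 reached 30.6 UPM in HFD endothelial-like cells, spread over 12 cells. Sfrp2 reached 174 UPM in HFD erythroid-like cells, in 1 cell. Sfrp4 was at 5.23 UPM in ND macrophage/monocyte-like cells and at 2.38 UPM in ND neutrophil-like cells, where 31 of 35 and 25 of 38 UMIs came from 1 cell each. Below that minimum, Sfrp4 in HFD erythroid-like cells was at 18.8 UPM, all 9 UMIs in 1 cell.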

How the results depend on the processing

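Of 156 log2 ratios of the 10 genes in mesenchymal-like cells under alternatives, 140 stayed inside the counting interval of the reported value and 16 lay outside it. Log2 ratios ranged from -0.79 to -0.38 for Sfrp4, from 0.45 to 1.75 for Wif1 and from 0.42 to 0.80 for Wnt5a, with no change of sign. Sfrp2 changed sign in 3, Dkk2 in 2, and Rspo2 (-0.23 to 0.61) and Rspo3 (-0.05 to 0.53) in 1 alternative each. With every cell thinned to 1000 UMIs, 1 of the 10 genes and 5 pathway genes passed the rule, against 3 and 10. The gene was Sfrp1 (log2 ratio 0.61 on 13 and 33 UMIs), and Sfrp4, Wif1 and Wnt5a no longer passed. Pathway genes past the rule numbered 3 with a minimum of 100 UMIs and 21 with a minimum of 1 UMI. Over all kept cells, 3 genes in place of 8 passed when both libraries were given equal class shares. The log2 ratio of the 10 genes summed, -0.06, was -0.13 without the cells of the top 5% of Scrublet scores, 0.044 without the highest cell of each gene, -0.16 without the unnamed subclusters and 0.074 with every cell given the same weight. The last 4 settings, and the finer split at resolution 1.0, were chosen after seeing the data. Without the highest cells, Wif1, Wnt5a and Rspo2 passed, all higher. The share of all genes past the rule is given for the main settings only. The counts under alternatives thus have no background beside them and cannot be read as enrichment or depletion. The cause of the changes between settings was not tested. Doublet removal by Scrublet's own calls was not run. No paired analysis was possible because no barcode is assigned to a mouse, and for the same reason no replicate could be left out. With 1 library per diet, differences between mice, digestions and libraries cannot be told apart from diet.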
